A study of Mus musculus with 2 samples.

Results

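The genes of mitosis and DNA replication were examined as a group of 56 genes, chosen by name from their known roles. No threshold on a measured value was used, but earlier results of these data were known when the group was chosen. Of the 56 genes, 55 were among the 13549 genes listed with read counts, and *Ccnd2* was not analysed here. The 55 were 28 mitotic genes, 22 replication genes and 5 regulators of G1 and of the step from G1 to S. All 55 had at least 20 reads over both libraries, and 3 of them (*Cdc6*, *Ccne1* and *Ccne2*) reached that number with 0 reads in one of the libraries.

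The reads came from 2 bulk RNA libraries of retinal microglia, the resident macrophages of the retina, taken from mice at postnatal day 5. The animals had the genotype CD11c-Cre-gfp;Rosa-TDTom, in which the promoter of the integrin CD11c drives a Cre recombinase with GFP and Cre switches on the red reporter TdTomato for good. Cells with both colours (Cd11c-active, 4041 cells) and cells with TdTomato alone (Cd11c-lineage, 5441 cells) came from 8 retinas, of which 4 were female and 4 male, so both groups share the genotype, the age and the retinas, and each gave 1 pooled library. The sort selected on reporter fluorescence, and the labels name no further surface marker. With 1 library a group there is no replicate check and no test between the conditions, and in bulk RNA fewer cycling cells and less RNA per cycling cell cannot be told apart.

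A dividing cell copies its DNA in S phase and separates the copies in mitosis. Entry into S phase is set by the D and E cyclins, which relieve the RB protein's hold on E2F factors. E2F factors then switch on the genes of replication, while genes of G2 and mitosis are switched on later through promoter elements called the cell cycle genes homology region (CHR) and the CCAAT box. Microglia are known to multiply in the early postnatal retina and to divide rarely in the adult.

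The 2 groups of genes carried different letters upstream of their start sites, which is shown here because it separates mitotic from replication genes by a property other than their reads. In RefSeq promoter windows of build GRCm38.p6, from 250 bases before to 50 bases after the start, the motifs searched on both strands were TTTGAA for the CHR, CCAAT, and for E2F any of TTCCCGC or TTGGCGC or TTCGCGC or TTGCCGC. Motifs of different kinds can overlap by sharing letters at their ends. A window was found for 23 of the 28 mitotic, 19 of the 22 replication and 3 of the 6 G1 genes. The CHR was in 18 of 23 mitotic windows (78.3%) and 3 of 19 replication windows (15.8%), against 12% of the 9640 genes with at least 20 reads that had a window and 18.1% of all 27025 genes in the promoter table. A CCAAT box was in 20 of 23 (87.0%) and 13 of 19 (68.4%), against 38.9% and 37.9%. E2F letters showed the reverse order, in 5 of 23 mitotic windows (21.7%) and 12 of 19 replication windows (63.2%), against 17.6% and 9.69%. No match to these exact letters was in the 3 windows used for the G1 genes *Ccnd3*, *Ccne1* and *E2f1*. Only the first window listed for a gene was searched, and its start need not be the gene's main start. Sites elsewhere or with other letters would be missed, so this does not show that these genes lack such elements. A match is a description of letters and not a shown binding site, and these windows are on an older build than the GRCm39 named for the counts.

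The 250 bases upstream of 6 members are printed from 5′ to 3′ with the matched letters in capitals. *Cdc20*, *Top2a* and *Ube2c* have CCAAT boxes upstream of a CHR that lies close to the start, where ATTGG and TTCAAA are the same motifs on the other strand. *Mcm5* and *Mcm6* encode subunits of one helicase and lay on opposite sides of 0 in the comparison below, and *Rrm2* had the clearest difference of all members. The positions in GRCm38.p6 were *Cdc20* chr4:118437344-118437593 on the minus strand, *Top2a* chr11:99024190-99024439 on the minus strand, *Ube2c* chr2:164769679-164769928 on the plus strand, *Mcm5* chr8:75109259-75109508 on the plus strand, *Mcm6* chr1:128359706-128359955 on the minus strand and *Rrm2* chr12:24708004-24708253 on the plus strand.
Cdc20: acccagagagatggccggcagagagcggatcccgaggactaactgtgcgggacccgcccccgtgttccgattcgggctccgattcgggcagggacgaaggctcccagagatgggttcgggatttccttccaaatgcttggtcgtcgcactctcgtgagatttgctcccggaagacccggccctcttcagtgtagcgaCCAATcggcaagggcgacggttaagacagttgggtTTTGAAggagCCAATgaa
Top2a: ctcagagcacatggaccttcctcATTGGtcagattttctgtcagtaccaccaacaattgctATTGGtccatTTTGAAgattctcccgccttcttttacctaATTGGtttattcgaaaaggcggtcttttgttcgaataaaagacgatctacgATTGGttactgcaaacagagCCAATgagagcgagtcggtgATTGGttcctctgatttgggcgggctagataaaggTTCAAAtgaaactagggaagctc
Ube2c: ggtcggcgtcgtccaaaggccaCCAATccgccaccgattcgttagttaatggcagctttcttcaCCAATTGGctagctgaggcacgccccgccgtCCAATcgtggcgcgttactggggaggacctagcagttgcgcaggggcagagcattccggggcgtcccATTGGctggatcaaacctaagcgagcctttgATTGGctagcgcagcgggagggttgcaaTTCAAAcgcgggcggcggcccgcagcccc
Mcm5: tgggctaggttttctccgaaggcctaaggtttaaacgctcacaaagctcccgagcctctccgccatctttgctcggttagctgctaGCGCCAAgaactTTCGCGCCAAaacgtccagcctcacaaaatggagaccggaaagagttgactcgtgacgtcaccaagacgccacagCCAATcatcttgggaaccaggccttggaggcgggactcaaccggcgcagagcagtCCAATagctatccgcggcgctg
Mcm6: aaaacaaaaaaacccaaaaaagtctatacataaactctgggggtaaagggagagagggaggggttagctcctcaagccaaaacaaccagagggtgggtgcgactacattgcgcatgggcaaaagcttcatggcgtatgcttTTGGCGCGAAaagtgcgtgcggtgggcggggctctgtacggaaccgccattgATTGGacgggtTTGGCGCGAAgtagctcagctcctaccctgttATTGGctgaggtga
Rrm2: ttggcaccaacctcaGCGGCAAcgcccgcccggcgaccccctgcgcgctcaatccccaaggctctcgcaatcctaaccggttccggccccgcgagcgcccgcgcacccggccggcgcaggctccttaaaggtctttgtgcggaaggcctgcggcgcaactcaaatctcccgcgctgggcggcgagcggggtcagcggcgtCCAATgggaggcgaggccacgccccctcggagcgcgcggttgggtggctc

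Positions are those of the first matched letter as printed, counted backwards from -1 at the last base. *Cdc20* had CCAAT boxes at -53 and -8 and a CHR at -18. *Ube2c* had its CHR at -29 and 6 CCAAT matches, the nearest at -57. *Top2a* had 6 CCAAT matches and 2 of the CHR, at -179 and -23. *Mcm6* carried 4 E2F matches upstream of its start, which lie as overlapping pairs on opposite strands at -109 and -106 and at -46 and -43. *Mcm5* had 3, at -164, -152 and -149. *Rrm2* had a single E2F match, at -235, and 1 CCAAT box.

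The libraries held 12943998 reads (Cd11c-active) and 13402625 reads (Cd11c-lineage). Reads are given for Cd11c-active first and Cd11c-lineage second, and a ratio above 0 means a higher level in Cd11c-active. Ratios are on the log2 scale after scaling with TMM factors, which assume that most genes are equal and which moved every ratio up by 0.14 against scaling to library totals. The first interval given with a ratio is the exact 95% counting interval of the reads. Genes differed between the libraries by far more than independent reads would, since among 1978 genes with 800 to 1599 reads the variance of the ratio was 80.3 times the counting variance. A widened interval, made from reads divided by 80.3, takes this spread as the error. It takes the typical gene as equal in both libraries, and it is wide for any single gene of moderate depth. The reads of *Ccnb1*, *Ccnb2*, *Ccnd3*, *Pcna* and *Tyms* are less certain, because these genes have annotated pseudogene copies to which counting may have lost part of them.

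Transcripts of mitosis were together more abundant in Cd11c-active than in Cd11c-lineage. The 28 mitotic genes summed to 18443 and 14835 reads, a log2 ratio of 0.50 (0.47 to 0.53, widened 0.21 to 0.79). That is 1.41-fold (widened 1.16 to 1.73), or 1494 against 1056 CPM (reads scaled to the size of the library). Without *Mki67* the widened interval was 0.22 to 0.87, and without both *Mki67* and *Top2a*, the 2 members with the most reads, it was 0.18 to 0.90. For a sum the widened interval takes its genes as varying independently and is too narrow where they vary together. The nearly even sum of 12 microglia markers, at 0.08 (widened 0.02 to 0.15), also left out 0, so an interval clear of 0 does not by itself mark a difference for a sum. Endothelial markers were higher in the same library, at 866 against 73.8 summed CPM, and their part in the mitotic difference was not tested.

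Transcripts of replication stood closer to equality. The 22 replication genes summed to 13249 and 12468 reads, a log2 ratio of 0.27 (0.24 to 0.31, widened -0.05 to 0.60), or 1073 against 887 CPM. Without *Pcna*, the member with the most reads, the sum gave 0.35 (widened 0.005 to 0.70). For every 100 mitotic reads the Cd11c-active library held 71.8 replication reads and the Cd11c-lineage library 84.0. The mitotic ratio exceeded the replication ratio by 0.23 on the log2 scale (counting 0.18 to 0.27), and the widened interval of that difference, -0.20 to 0.65, included 0.

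Regulators of G1 went the other way as a sum. The 5 genes summed to 1461 and 2338 reads, a log2 ratio of -0.49 (-0.59 to -0.40, widened -1.42 to 0.40), and 1662 of the Cd11c-lineage reads were those of *Ccnd1*. Without *Ccnd1* the sum reversed to 0.45 (widened -1.02 to 1.96), so the direction of this sum rested on 1 gene.

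**Figure D1:**
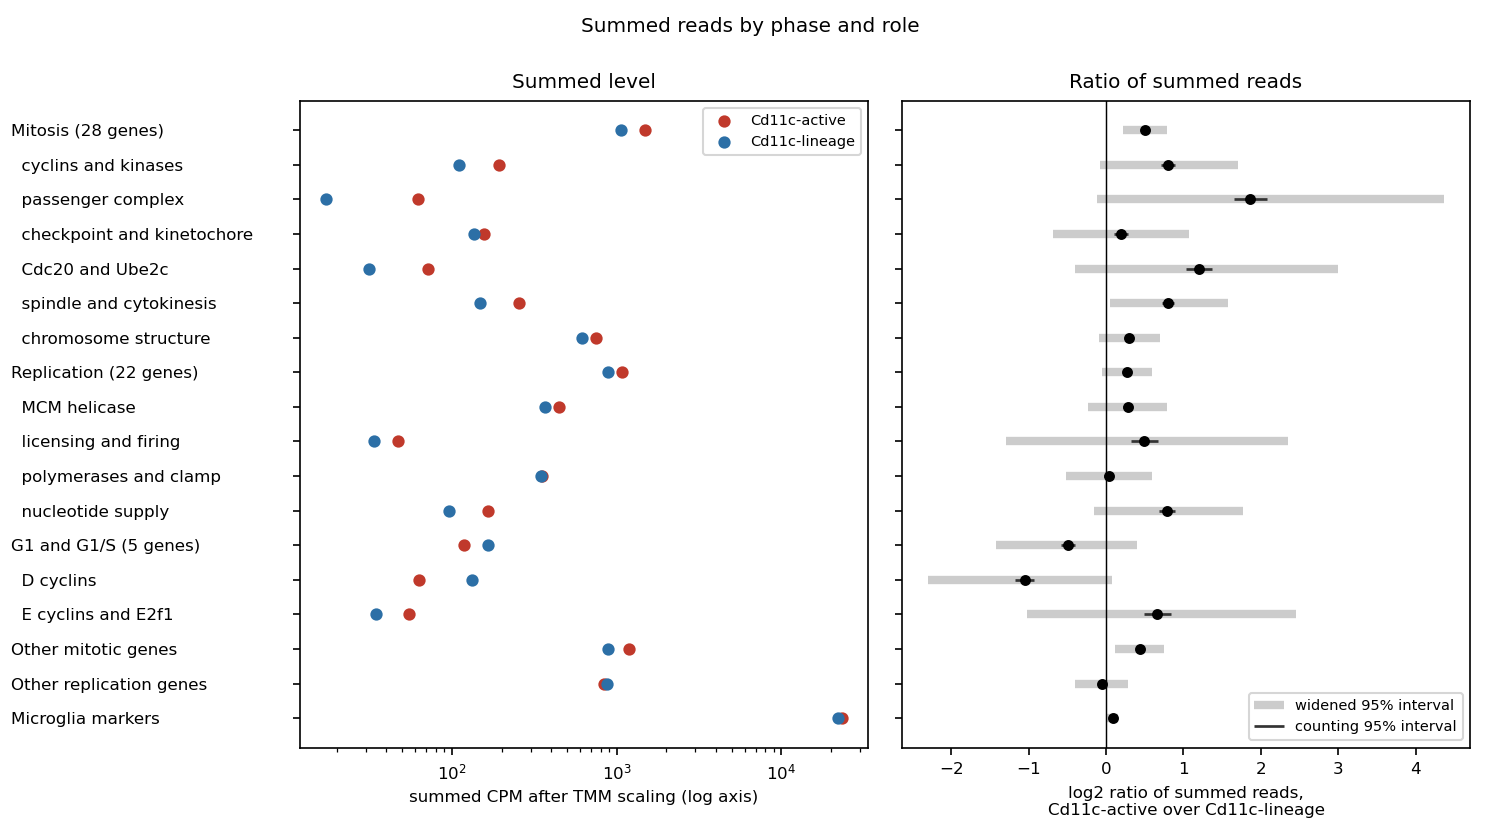
Summed CPM after TMM scaling in the 2 libraries (left, log axis) and log2 ratio of the summed reads (right) for the 3 groups, their roles, the further cell cycle lists and the microglia markers. Black lines are counting intervals and grey bars widened intervals; the mitotic sum lies at 0.50, the replication sum at 0.27, the D cyclins at -1.05 and the microglia markers at 0.08.

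Read gene by gene, most members lay above 0. Of the 55 members 41 (74.5%) had a ratio above 0, as did 50.2% of the 13037 genes with at least 20 reads. The fold used is a log2 ratio of at least 1 in either direction. Past it, 17 members (30.9%) were higher in Cd11c-active beside 23.3% of all genes, and 2 (3.64%) were higher in Cd11c-lineage beside 21.6%. Of the 17, *Cdc6*, *Ccne1* and *Ccne2* passed the minimum of 20 reads through Cd11c-active alone. Among genes with reads in both libraries 14 of 52 members (26.9%) were higher in Cd11c-active beside 16% of all 10256 genes, and 2 (3.85%) in Cd11c-lineage beside 13.9%. Mitotic genes had a median ratio of 0.77 and replication genes one of 0.34, beside 0.01 over all genes.

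The fold was passed more often at low depth. With at least 400 reads, 9 of 43 members (20.9%) were past the fold towards Cd11c-active beside 11.1% of all 7281 genes, and 2 (4.65%) towards Cd11c-lineage beside 8.23%. Of the 25 mitotic genes at that depth 8 (32.0%) were higher in Cd11c-active, and of the 16 replication genes 1 (6.25%). Between 800 and 1599 reads 3 of 18 members (16.7%) were past the fold in either direction, beside 21.7% of all genes, while 77.8% were above 0, beside 49.8%. Between 1600 and 3199 reads 3 of 7 members (42.9%) were above 0, beside 48.6%. When the widened interval also had to leave out 0, 1 member was higher in Cd11c-active, *Rrm2*, beside 1.34% of all genes, and 0 were higher in Cd11c-lineage, beside 0.422%. These shares have no test, and members of one complex or one phase are not independent of each other.

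**Figure D2:**
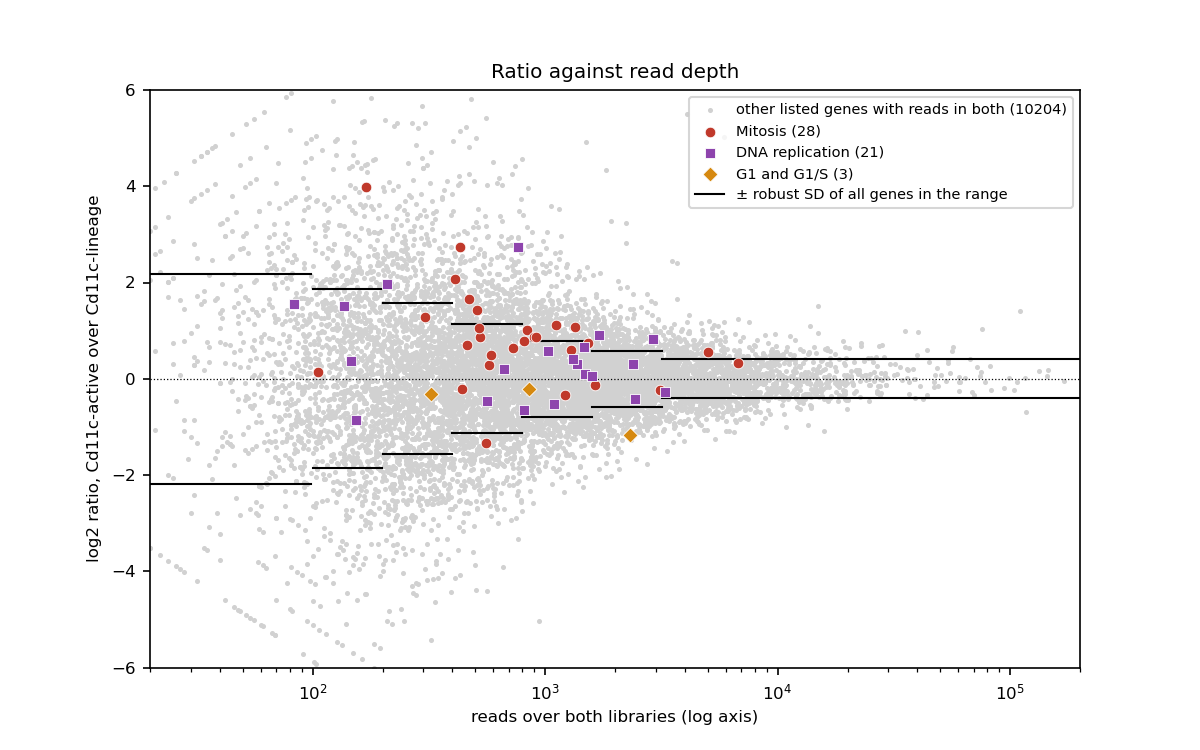
Log2 ratio against reads over both libraries (log axis) for members with reads in both libraries and, in grey, the other listed genes; black lines are plus and minus the robust SD of all genes in each depth range. Members mostly lie above 0 and among other genes of their depth, whose robust SD was 1.14 from 400 to 799 reads and 0.58 from 1600 to 3199.

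Cyclins and kinases that drive mitosis were all above 0. *Cdk1*, the kinase at the centre of mitotic entry, had 298 and 279 reads, a log2 ratio of 0.28 (0.04 to 0.52, widened -2.29 to 2.90). Its partners were further from 0. *Ccna2*, the cyclin of S and G2, had 492 and 323 reads, a log2 ratio of 0.79 (0.59 to 1.0, widened -1.27 to 3.05). *Ccnb1*, the main cyclin of mitotic entry, had 534 and 301 reads, a log2 ratio of 1.01 (0.81 to 1.22, widened -1.03 to 3.32). *Ccnb2*, a second B-type cyclin, had 360 and 151 reads, a log2 ratio of 1.44 (1.16 to 1.72, widened -1.30 to 5.0). *Plk1*, a kinase of spindle and centrosome maturation, had 273 and 191 reads, a log2 ratio of 0.70 (0.43 to 0.98, widened -2.17 to 3.90). *Aurka*, the centrosomal Aurora kinase, had 421 and 308 reads, a log2 ratio of 0.64 (0.42 to 0.85, widened -1.56 to 3.0). Together these 6 genes summed to 2378 and 1553 reads, a log2 ratio of 0.80 (0.71 to 0.89, widened -0.07 to 1.71). Both B cyclins were past the fold, *Ccnb1* not so when scaled to library totals, and the widened interval of each of the 6 genes included 0.

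The chromosomal passenger complex, which corrects faulty attachments of chromosomes to the spindle, had the highest ratio of the mitotic roles. Its kinase *Aurkb* had 347 and 124 reads, a log2 ratio of 1.67 (1.37 to 1.98, widened -1.24 to 5.74). *Cdca8*, which encodes the subunit borealin, had 370 and 63 reads, a log2 ratio of 2.73 (2.35 to 3.15, widened -0.71 to 9.56). *Birc5*, which encodes survivin, the third subunit measured, had only 52 and 54 reads, a log2 ratio of 0.13, and lay below 0 when scaled to library totals. The complex summed to 769 and 241 reads, a log2 ratio of 1.86 (1.65 to 2.08, widened -0.11 to 4.37), a widened interval that included 0. The scaffold of the complex, *Incenp*, from the further genes below, had 1045 and 1452 reads, a log2 ratio of -0.29 (-0.40 to -0.17, widened -1.44 to 0.82), a ratio on the other side of 0.

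The ligase that ends mitosis by marking cyclin B and securin for destruction was represented by *Cdc20*, its activator, and *Ube2c*, its ubiquitin carrier. *Cdc20* had 565 and 353 reads, a log2 ratio of 0.86 (0.67 to 1.06, widened -1.06 to 2.98). *Ube2c* had 323 and 87 reads, a log2 ratio of 2.07 (1.73 to 2.44, widened -1.18 to 7.36). Both ratios were above 0, that of *Ube2c* at 4.21-fold, and both widened intervals included 0.

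Spindle checkpoint and kinetochore genes split. *Bub1* had 324 and 202 reads, a log2 ratio of 0.87 (0.61 to 1.13, widened -1.78 to 3.90), and *Bub1b*, its relative in the checkpoint complex that holds back anaphase, had 731 and 385 reads, a log2 ratio of 1.11 (0.93 to 1.29, widened -0.63 to 3.07). The long kinetochore transcripts lay below 0, although *Cenpf* lay above 0, at 0.17, with the dependence on length and GC content taken out. *Cenpe*, the kinetochore kinesin, had 144 and 415 reads, a log2 ratio of -1.34 (-1.62 to -1.06, widened -4.97 to 1.32), and was the mitotic gene past the fold towards Cd11c-lineage. *Cenpf*, a large kinetochore protein, had 727 and 911 reads, a log2 ratio of -0.14 (-0.28 to 0.00, widened -1.58 to 1.25).

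Among genes of the spindle and of cytokinesis 6 of 7 were above 0, and their sum of 3175 and 2079 reads, a log2 ratio of 0.80 (0.72 to 0.88, widened 0.05 to 1.57) was the 1 role whose widened interval left out 0. Its lower bound was smaller than the 0.14 by which TMM scaling moved the ratios. *Prc1*, which bundles microtubules in the midzone, had 876 and 473 reads, a log2 ratio of 1.07 (0.91 to 1.24, widened -0.50 to 2.81). *Kif11*, the motor that pushes spindle poles apart, had 555 and 345 reads, a log2 ratio of 0.87 (0.68 to 1.07, widened -1.08 to 3.02). *Tpx2*, which activates Aurora A on the spindle, had 734 and 554 reads, a log2 ratio of 0.59 (0.43 to 0.75, widened -1.0 to 2.26). These 3 carried most reads of the role, and *Prc1*, past the fold here, did not reach it when scaled to library totals, like *Anln* and, among the checkpoint genes, *Bub1b*. *Anln*, the scaffold of the contractile ring, had 336 and 185 reads, a log2 ratio of 1.05 (0.78 to 1.31, widened -1.62 to 4.22). *Kif20a*, a midzone motor, had 326 and 262 reads, a log2 ratio of 0.50 (0.26 to 0.74, widened -2.0 to 3.16). *Kif23*, a subunit of centralspindlin, had 189 and 249 reads, a log2 ratio of -0.21 (-0.49 to 0.07, widened -3.47 to 2.77), and was the exception in direction. *Nusap1*, a microtubule binding protein, had 159 and 11 reads, a log2 ratio of 3.98, the highest ratio among members with reads in both libraries, at a depth where 74.6% of all genes were past the fold.

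Genes of chromosome structure held the most reads of the mitotic roles. *Mki67*, which encodes the Ki-67 coat of mitotic chromosomes, had 3543 and 3198 reads, a log2 ratio of 0.33 (0.26 to 0.40, widened -0.32 to 0.99). *Top2a*, the topoisomerase that untangles sister chromatids, had 2823 and 2198 reads, a log2 ratio of 0.55 (0.47 to 0.63, widened -0.21 to 1.32). Both lay above 0 with widened intervals that included it. The condensins, which compact chromosomes, went in both directions. *Smc2* had 909 and 618 reads, a log2 ratio of 0.74 (0.59 to 0.89, widened -0.71 to 2.28), and its partner ATPase *Smc4* had 499 and 715 reads, a log2 ratio of -0.33 (-0.50 to -0.17, widened -2.08 to 1.31). *Ncapd2* had 1326 and 1783 reads, a log2 ratio of -0.24 (-0.34 to -0.14, widened -1.25 to 0.74), and *Ncapg* had 207 and 97 reads, a log2 ratio of 1.28. *Smc2* and *Smc4* work as a pair, and their ratios had opposite signs.

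**Figure D3:**
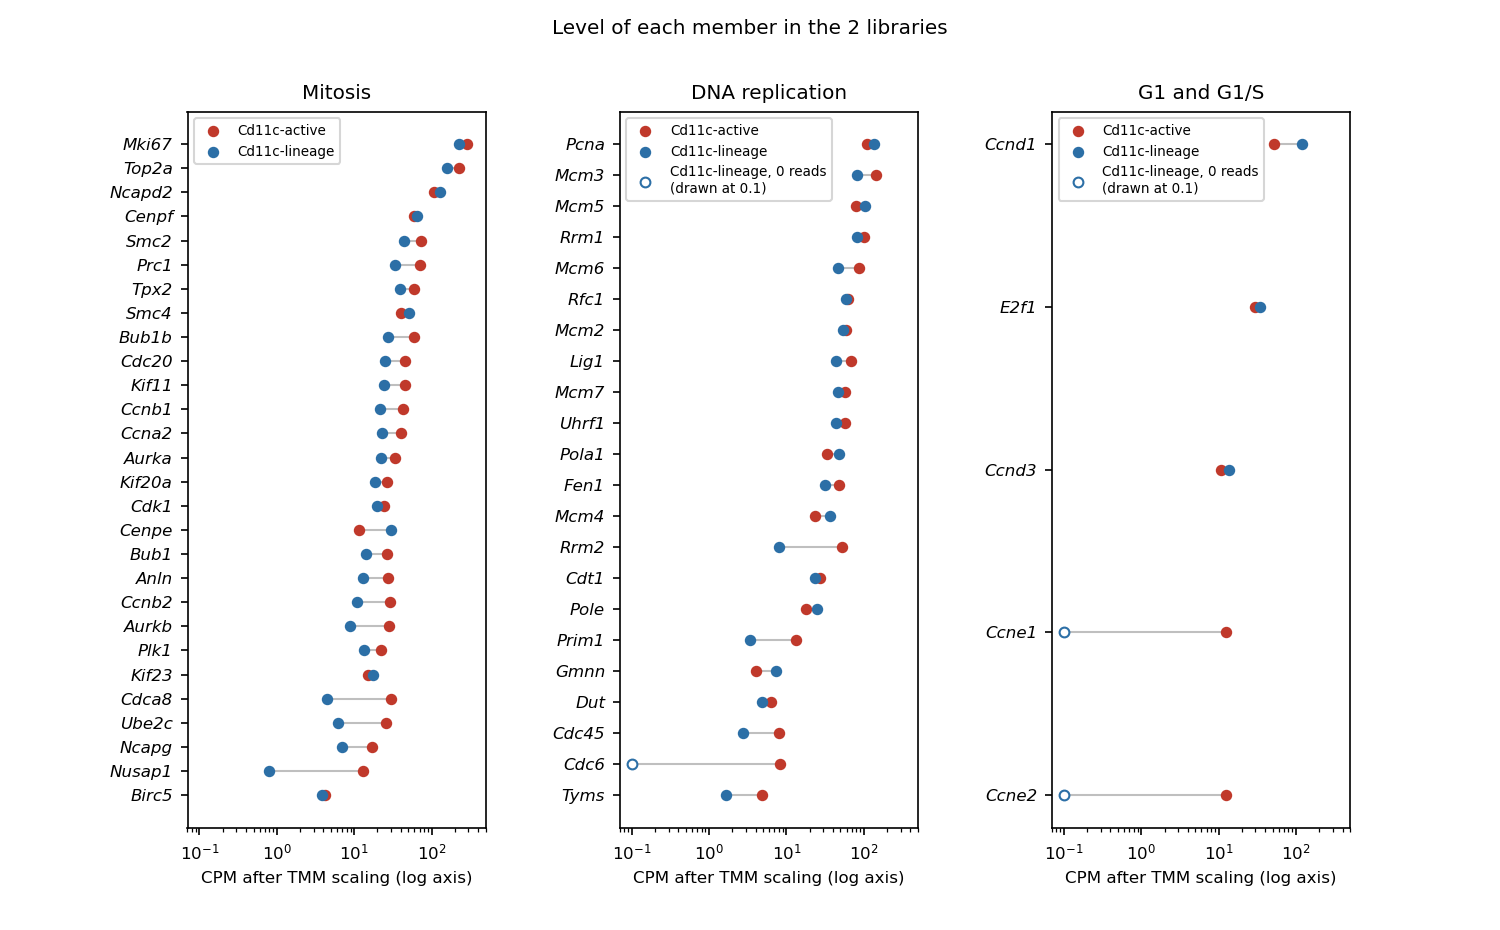
CPM after TMM scaling (log axis) of each member in Cd11c-active (red) and Cd11c-lineage (blue), by group and in order of reads; open circles are genes with 0 reads, drawn at 0.1. Most mitotic genes have the red point to the right, the abundant replication genes have both orders, and *Cdc6*, *Ccne1* and *Ccne2* have open circles in Cd11c-lineage.

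The replicative helicase is a ring of 6 MCM proteins, loaded in G1 and fired in S phase, and its subunits are needed in equal number. Their transcripts lay on both sides of 0. *Mcm6* had 1066 and 645 reads, a log2 ratio of 0.91 (0.77 to 1.05, widened -0.46 to 2.38), and *Mcm3* had 1777 and 1140 reads, a log2 ratio of 0.83 (0.72 to 0.94, widened -0.20 to 1.90). *Mcm7* had 715 and 656 reads, a log2 ratio of 0.31 (0.16 to 0.47, widened -1.23 to 1.88), and *Mcm2* had 719 and 761 reads, a log2 ratio of 0.10 (-0.04 to 0.25, widened -1.39 to 1.59). *Mcm5* had 969 and 1468 reads, a log2 ratio of -0.41 (-0.53 to -0.29, widened -1.59 to 0.71), and *Mcm4* had 291 and 519 reads, a log2 ratio of -0.65 (-0.86 to -0.44, widened -3.01 to 1.43). Of these *Mcm2* lay below 0 when scaled to library totals. The 6 genes ran from -0.65 to 0.91 and summed to 5537 and 5189 reads, a log2 ratio of 0.28 (0.23 to 0.34, widened -0.23 to 0.79), and 0 of the 6 were past the fold, where 11.1% and 8.23% of all genes with at least 400 reads were past it in the respective directions.

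Licensing and firing genes were thinly covered except *Cdt1*. *Cdt1*, which loads the helicase onto origins, had 335 and 329 reads, a log2 ratio of 0.21 (-0.01 to 0.44, widened -2.16 to 2.59). Its inhibitor *Gmnn*, or geminin, had 50 and 104 reads, a log2 ratio of -0.86. *Cdc45*, which joins the helicase when an origin fires, had 98 and 39 reads, a log2 ratio of 1.50. *Cdc6*, the other loader, had 101 and 0 reads, at least 38.3-fold higher in Cd11c-active when the 0 is set to a floor of 3 reads in that library. That bound covers counting error only, and the widened interval of *Cdc6* reached down to -3.97. Among all genes with 100 to 199 reads 15.8% had 0 reads in Cd11c-lineage and 22.2% had 0 in Cd11c-active, so a 0 at this depth is common.

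Polymerase, clamp and ligation genes were about even, with a sum of 4377 and 4855 reads, a log2 ratio of 0.04 (-0.02 to 0.10, widened -0.52 to 0.59). Scaled to library totals, this sum would lie below 0, as did *Rfc1*. *Pcna*, the sliding clamp, had 1381 and 1896 reads, a log2 ratio of -0.27 (-0.37 to -0.17, widened -1.26 to 0.69). *Rfc1*, the large subunit of the clamp loader, had 762 and 832 reads, a log2 ratio of 0.06 (-0.08 to 0.20, widened -1.38 to 1.48). *Pola1* and *Pole*, catalytic subunits of polymerases alpha and epsilon, were below 0. *Pola1* had 411 and 678 reads, a log2 ratio of -0.53 (-0.72 to -0.36, widened -2.46 to 1.22), and *Pole* had 219 and 346 reads, a log2 ratio of -0.47 (-0.72 to -0.22, widened -3.35 to 2.07). *Prim1*, the primase that works with polymerase alpha, had 163 and 47 reads, a log2 ratio of 1.97. The enzymes that finish Okazaki fragments were above 0. *Fen1*, the flap nuclease, had 587 and 445 reads, a log2 ratio of 0.59 (0.41 to 0.77, widened -1.22 to 2.48), and *Lig1*, the ligase, had 854 and 611 reads, a log2 ratio of 0.67 (0.52 to 0.82, widened -0.81 to 2.23).

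Nucleotide supply held the clearest single difference. *Rrm2*, the small subunit of ribonucleotide reductase and the one whose level follows S phase, had 655 and 112 reads, a log2 ratio of 2.73 (2.44 to 3.04, widened 0.14 to 6.95), or 53.1 against 7.97 CPM. The 6.63-fold difference was the 1 among members whose widened interval left out 0, by about as much as the shift of 0.14 between scalings. Relative to library totals, *Rrm2* is at 2.60 on the log2 scale in the authors' deposited table. *Rrm1*, the large subunit, had 1243 and 1140 reads, a log2 ratio of 0.31 (0.19 to 0.43, widened -0.83 to 1.46). *Tyms*, which makes thymidylate, had 60 and 23 reads, a log2 ratio of 1.55, and *Dut*, which removes dUTP, had 78 and 69 reads, a log2 ratio of 0.36. All 4 genes were above 0, and summed to 2036 and 1344 reads, a log2 ratio of 0.79 (0.69 to 0.89, widened -0.16 to 1.77). *Uhrf1*, which keeps DNA methylation in place on the new strand, had 715 and 608 reads, a log2 ratio of 0.42 (0.26 to 0.58, widened -1.15 to 2.03).

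Of the D cyclins, which tie the cycle to growth signals, *Ccnd1* was past the fold towards Cd11c-lineage. *Ccnd1* had 650 and 1662 reads, a log2 ratio of -1.17 (-1.30 to -1.04, widened -2.55 to 0.06), or 52.6 against 118 CPM, and was the deepest covered of the members past the fold. Markers of retinal progenitors, in which *Ccnd1* is abundant, and of Muller glia summed to 2295 against 2473 CPM with *Glul* and to 45.6 against 104 CPM without it. Single markers went both ways. Without *Glul*, 3 of 7 were past the fold towards Cd11c-active and 3 towards Cd11c-lineage, beside 23.3% and 21.6% of all genes. The part of these cells was not tested. *Ccnd3* had 134 and 190 reads, a log2 ratio of -0.32. The E cyclins, which trigger S phase with CDK2, showed the opposite extreme. *Ccne1* had 156 and 0 reads and *Ccne2* had 152 and 0 reads, at least 59.2-fold and 57.7-fold higher in Cd11c-active over the floor of 3 reads. Their widened intervals reached down to -2.32 and -2.40. *E2f1*, the transcription factor upstream of both, had 369 and 486 reads, a log2 ratio of -0.21 (-0.41 to -0.01, widened -2.34 to 1.80). Like *Cdc6*, both had 100 to 199 reads, where 15.8% of all genes had 0 reads in Cd11c-lineage, and these 3 members reached the minimum of 20 reads through Cd11c-active alone.

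**Figure D4:**
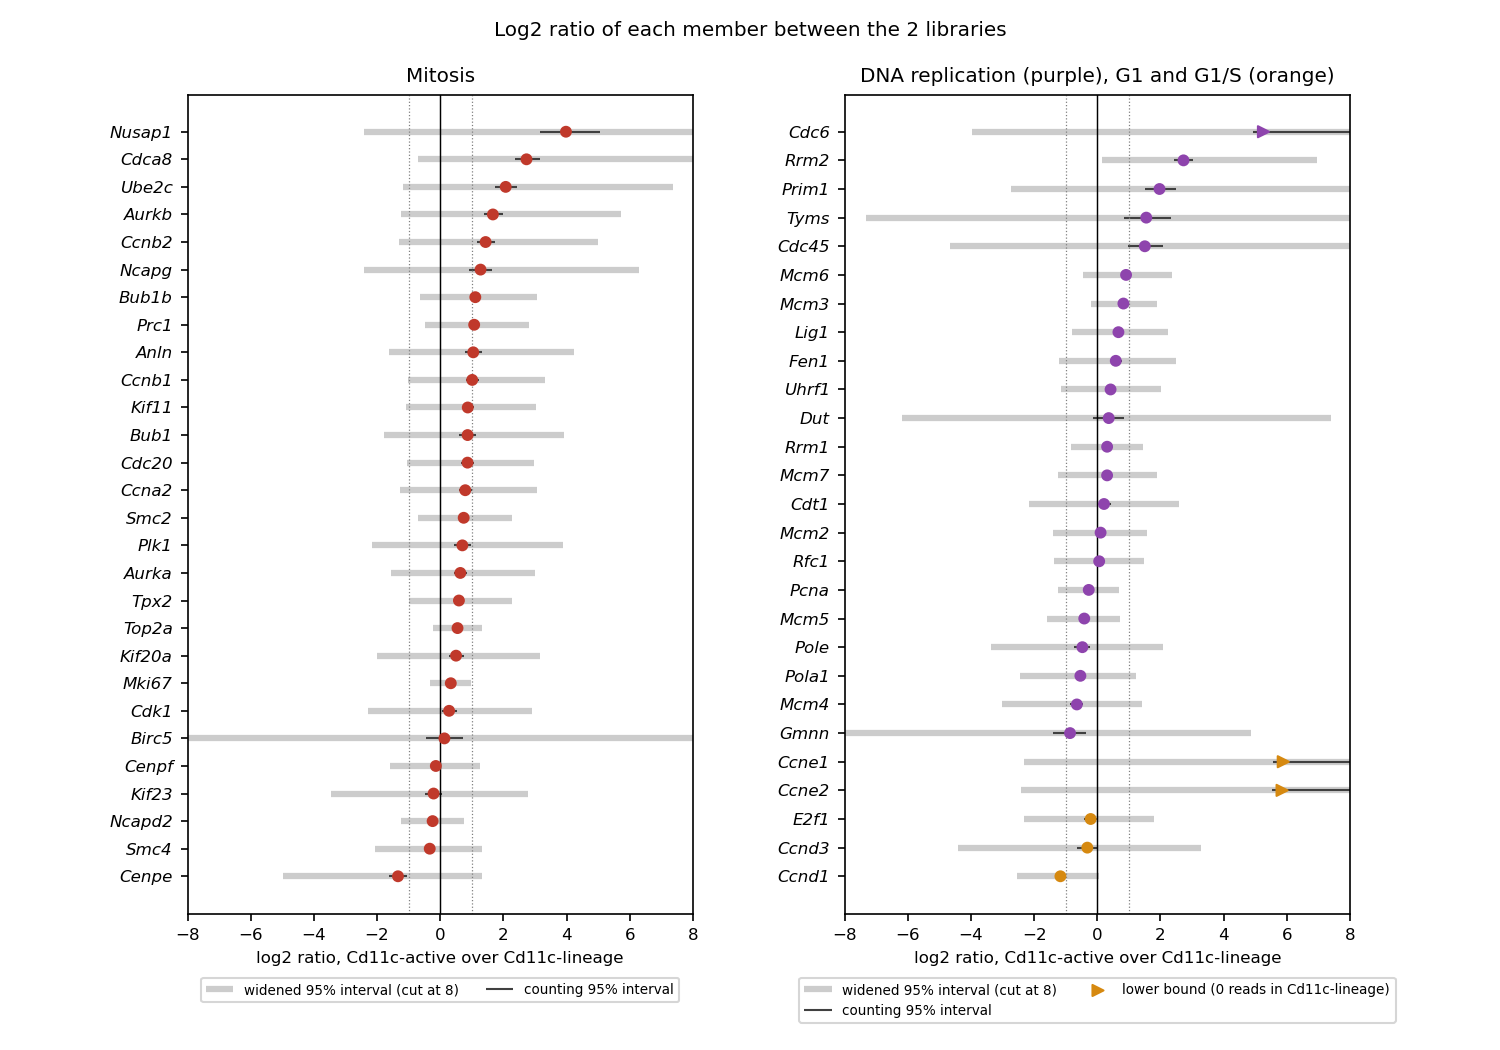
Log2 ratio of every member with its counting interval (black) and widened interval (grey, drawn up to 8 in either direction), mitotic genes left, replication (purple) and G1 genes (orange) right; triangles are lower bounds for genes with 0 reads in Cd11c-lineage, and dotted lines mark the fold. *Rrm2* is the member whose grey bar ends above 0, and the 2 members left of -1 are *Cenpe* and *Ccnd1*.

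The order of abundance was compared per kilobase of the longest annotated transcript. By CPM per kilobase averaged over the libraries, *Pcna* was first at 81.3, followed by *Top2a* at 36.9, *Mcm3* at 32.8, *Mcm5* at 27.1, *Mki67* at 25.6 and *Ncapd2* at 25.3. *Pcna* was above 95.6% of genes with at least 20 reads and *Mki67* above 82.9%. *Pcna* was first in both libraries. Among the 55, *Rrm2* had rank 6 in Cd11c-active and rank 40 in Cd11c-lineage, and *Ccnd1* had ranks 22 and 2. *Tyms* was last by the average, at 0.836 CPM per kilobase.

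Further cell cycle genes outside the 55 were read from lists drawn up by known role, also with earlier results of these data known. Of 49 other mitotic genes with at least 20 reads 20 (40.8%) were past the fold towards Cd11c-active, beside 23.3% of all genes, and 5 (10.2%) towards Cd11c-lineage, beside 21.6%, with a median of 0.56. Of the 20, 4 passed the minimum of 20 reads through Cd11c-active alone, and with reads in both libraries 16 of 43 (37.2%) and 3 of 43 (6.98%) were past the fold, beside 16% and 13.9% of all genes. They summed to 14695 and 12392 reads, a log2 ratio of 0.43 (0.40 to 0.47, widened 0.12 to 0.75). That interval has the limit given for sums, and its lower bound was smaller than the shift of 0.14 between scalings. Of the 49, 1 was past the fold with a widened interval that left out 0, beside 1.34% of all genes. This was *Cenpa*, with 454 and 18 reads, a log2 ratio of 4.81 (4.17 to 5.61, widened 0.11 to 27.2), again with a lower bound smaller than 0.14. The other mitotic genes with the most reads had both signs. *Incenp* is given above, *Bub3*, a checkpoint protein, had 636 and 1082 reads, a log2 ratio of -0.58 (-0.72 to -0.44, widened -2.05 to 0.79), and *Aspm*, a spindle pole protein, had 913 and 715 reads, a log2 ratio of 0.54 (0.40 to 0.68, widened -0.86 to 1.99). *Racgap1*, the partner of *Kif23*, had 873 and 629 reads, a log2 ratio of 0.66 (0.51 to 0.81, widened -0.80 to 2.19). Of 40 other replication genes 8 (20%) were past the fold towards Cd11c-active and 7 (17.5%) towards Cd11c-lineage, beside 23.3% and 21.6% of all genes. Of the 8, 3 had 0 reads in Cd11c-lineage. With reads in both libraries 5 of 37 (13.5%) and 7 of 37 (18.9%) were past it, beside 16% and 13.9%. With at least 400 reads the counts were 0 of 22 and 5 of 22 (22.7%), beside 11.1% and 8.23%. The 40 genes had a median of 0.09. The list summed to 10378 and 12295 reads, a log2 ratio of -0.06 (-0.10 to -0.02, widened -0.41 to 0.29). The maintenance methyltransferase *Dnmt1* had 1415 and 1418 reads, a log2 ratio of 0.18 (0.08 to 0.29, widened -0.85 to 1.22). *Rpa1*, which coats single strands, had 1050 and 1131 reads, a log2 ratio of 0.08 (-0.04 to 0.20, widened -1.12 to 1.27), *Atad2* had 637 and 867 reads, a log2 ratio of -0.26 (-0.41 to -0.11, widened -1.79 to 1.20), and *Rfc2* of the clamp loader had 748 and 538 reads, a log2 ratio of 0.66 (0.50 to 0.82, widened -0.93 to 2.34). *Nasp*, a histone chaperone, had 343 and 906 reads, a log2 ratio of -1.21 (-1.40 to -1.03, widened -3.24 to 0.50). The ratio of the other mitotic sum exceeded that of the other replication sum by 0.49 (widened 0.03 to 0.95). This interval also has the limit given for sums, and the same difference among the members was 0.23 (widened -0.20 to 0.65).

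A list of CDKs, E2F factors, RB proteins and their regulators *Cdc25a*, *Wee1*, *Myc* and *Mycn* was balanced, with 4 of 19 (21.1%) past the fold towards Cd11c-active, 2 (10.5%) towards Cd11c-lineage and a median of 0.11, beside 23.3% and 21.6% of all genes past it. *Cdk6* and *Cdk4*, both partners of the D cyclins, parted. *Cdk6* had 1587 and 2270 reads, a log2 ratio of -0.33 (-0.42 to -0.24, widened -1.24 to 0.55), and *Cdk4* had 1075 and 530 reads, a log2 ratio of 1.21 (1.06 to 1.36, widened -0.24 to 2.81). *Rbl1*, an RB relative, had 570 and 931 reads, a log2 ratio of -0.52 (-0.67 to -0.37, widened -2.10 to 0.95), and *Tfdp1*, the partner of E2F factors, had 762 and 735 reads, a log2 ratio of 0.24 (0.09 to 0.39, widened -1.24 to 1.72). Genes that restrain the cycle had a median of 0.31 over 10 genes, with 1 (10%) past the fold towards Cd11c-active and 2 (20%) towards Cd11c-lineage, where all genes had 23.3% and 21.6%. *Btg2*, an antiproliferative gene, had 11178 and 11275 reads, a log2 ratio of 0.17 (0.14 to 0.21, widened -0.17 to 0.52), more reads than any member. *Btg1* had 3722 and 3471 reads, a log2 ratio of 0.29 (0.22 to 0.35, widened -0.34 to 0.92), and the p53 target *Ccng1* had 1247 and 955 reads, a log2 ratio of 0.57 (0.45 to 0.69, widened -0.61 to 1.79). *Cdkn1b*, which encodes p27, had 471 and 881 reads, a log2 ratio of -0.72 (-0.88 to -0.55, widened -2.46 to 0.85), and *Trp53* had 747 and 316 reads, a log2 ratio of 1.43 (1.24 to 1.62, widened -0.41 to 3.59).

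Microglia markers were present in both libraries and nearly even as a sum, with 12 of 12 listed and 23396 against 22070 summed CPM. All 12 had at least 400 reads and 0 were past the fold, beside 11.1% and 8.23% of all genes at that depth. Single markers ran from -0.57 to 0.59. The widened interval left out 0 for 4 of the 12, beside 377 of all 13037 genes with at least 20 reads. Markers of other cells that divide or lie close by in the young retina differed between the groups, and their counts past the fold stand beside 23.3% and 21.6% of all genes. All 12 endothelial markers were past the fold towards Cd11c-active, 7 of them with 0 reads in Cd11c-lineage (*Flt1*, *Tek*, *Cldn5*, *Esam*, *Plvap*, *Vwf* and *Emcn*), and their sum was 866 against 73.8 CPM. Pericyte markers summed to 64.0 against 11.1 CPM, with 4 of 6 past the fold towards Cd11c-active, all 4 with 0 reads in Cd11c-lineage, and 2 towards Cd11c-lineage. Markers of retinal progenitors and Muller glia other than *Glul*, of which 8 of 11 were listed, summed to 45.6 against 104 CPM. Of 7 with at least 20 reads 3 were past the fold towards Cd11c-active and 3 towards Cd11c-lineage. *Slc1a3* had 73 and 642 reads and *Pax6* 58 and 308, while *Rlbp1* had 94 and 0 and *Lhx2* 37 and 0. *Sox2* had 0 and 8 reads. Retinal neuron markers summed to 125 against 306 CPM, with 5 of 9 past the fold towards Cd11c-lineage and 1, *Rbpms*, towards Cd11c-active. *Pdc* and *Ncam1* were at 0 in Cd11c-active and *Rbfox3* at 0 in Cd11c-lineage. Border macrophage and monocyte markers summed to 24.1 against 148 CPM, with 8 of 9 past the fold towards Cd11c-lineage, 7 of them at 0 in Cd11c-active. The other, *Ccr2*, was past the fold towards Cd11c-active with 35 and 0 reads. The part of pericytes, neurons, border macrophages and monocytes in the differences above was not tested either.

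Ratios also varied with transcript length. Across 52 members with reads in both libraries Spearman's rho of the ratio with the length of the longest transcript was -0.28. Across 4605 genes with at least 1000 reads it was -0.26. Across 10237 genes with at least 20 reads and reads in both libraries, the filter used for the members, it was -0.13, and the points share 2 libraries and are not independent. Mitotic genes under 3000 nucleotides had a median ratio of 0.94 (8 genes) and longer ones 0.57 (20 genes). Replication genes had 0.34 (8 genes) and 0.37 (14 genes), and all genes 0.18 and -0.08. With the dependence on length and GC content taken out, the mitotic median was 0.75 and the replication median 0.27. By promoter letters, members with a CHR had a median of 0.74 (21 genes, 18 of them mitotic) and those without one 0.39 (24 genes). With a CCAAT box the median was 0.70 (33 genes) and without it 0.63 (12 genes), and with E2F letters it was 0.33 (17 genes) and without them 0.72 (28 genes). The CHR and E2F letters follow the mitotic and replication groups, so their splits are not separate from that grouping. The CCAAT box was frequent in both groups. No motif was compared within a group.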

How the data were processed

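RNA of both sorted populations was depleted of ribosomal RNA and made into stranded libraries, per the labels' protocols. The authors deposited raw counts per gene, and the submitters' processing notes name cutadapt 3.5, STAR 2.7.9a, featureCounts 1.6.3, edgeR 4.0.16 and build GRCm39. The annotation, the strand setting and any removal of duplicates are not given in the sources used here. The authors' deposited log2 fold change was used only where named. The table's smallest sum was 6 reads, so genes under that were left out before deposit.

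Scaling used TMM factors (0.954 and 1.05), computed with edgeR 4.0.16 under R 4.3.3. The log2 ratio was taken after adding 0.5 reads. No edgeR or DESeq2 test could be fitted with 1 library a group, so no p-value is given, and called means past the fold with at least 20 reads. Counting intervals are exact Clopper-Pearson intervals. Since PCR copies carry no molecular identifiers, intervals and the floor of 3 reads (0.243 and 0.214 CPM) cover counting error only. The overdispersion was the squared robust SD of the ratio over its median counting variance. Ratios and intervals were tested on simulated data. All 55 members and 99.6% of listed genes had a transcript length from GENCODE M21, used only for length and GC content, and 45 of 56 members had a promoter window, taken as the first listed for a gene. Python 3.11.15, numpy 2.4.6, scipy 1.17.1, pandas 2.3.3 and matplotlib 3.10.9 were used.

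All 56 members were named, the 55 listed ones with their reads, with intervals from 400 reads upwards. From each further cell cycle list the 4 genes with the most reads were named, with any past the fold at 1000 reads or more. The members, lists and alternatives were chosen with earlier results of these data known. The trend with length and GC content, fitted on genes of 1000 reads or more, the scaling to microglia markers and the restriction to genes with reads in both libraries were added after the files were seen.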

Additional observations from a re-analysis of the deposited data

How the results depend on the processing

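Scaling to library totals lowered every ratio by 0.14. The mitotic sum was then 0.36, the replication sum 0.14 and the G1 sum -0.63, and the mitotic and replication medians were 0.63 and 0.20. Of the members past the fold, *Ccnb1*, *Bub1b*, *Anln* and *Prc1* no longer reached it, and *Birc5*, *Mcm2* and *Rfc1* changed sign. Scaled to the microglia markers, the mitotic sum was 0.42 and the replication sum 0.19. Without the member with the most reads, the mitotic sum was 0.54, the replication sum 0.35 and the G1 sum 0.45, the last reversed because *Ccnd1* supplies most of its reads. A minimum of 400 reads gave a replication median of 0.26 and 9 members past the fold towards Cd11c-active. Fewer members were counted, 43 of the 55, and the share past the fold was also lower, at 20.9% against 30.9%. Removing the trend with length and GC content gave a replication median of 0.27, with *Ccnb1* short of the fold, *Kif11* and *Gmnn* past it, and *Cenpf* and *Cdt1* changed in sign. Requiring the widened interval to leave out 0 left 1 member towards Cd11c-active and 0 towards Cd11c-lineage. DESeq2 size factors and TMM without ribosomal, mitochondrial and 7SK/7SL genes kept each of these sums, medians and counts in direction and size. The medians and counts, but not the sums, were also computed with 2 added reads and with no minimum of reads, and kept both. No paired analysis was possible because each group has 1 library. The widened interval left out 0 for 1 of 55 members.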
